A study of Mus musculus with 19 samples.

Results

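The genes described here encode the collagen chains of the mouse cortex, and they were chosen by symbol alone: every row of the deposited RNA-seq table whose symbol is Col, a number, the letter a and a number. The rule found 39 chains among the 14996 genes of the table, and uses no measured value to pick a chain. They comprise 11 fibrillar chains, 8 fibril-associated chains (FACIT), 5 type VI chains, 4 type IV chains of the basement membrane, 4 transmembrane chains, 2 multiplexins, 2 network-forming type VIII chains and 3 anchoring and other chains. Col4a3, Col4a4, Col6a6, Col9a1 and Col10a1 had no row in the table under these symbols. Every gene in the table was over 1 RPM (read counts scaled to a common library total) in at least 2 libraries.

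Collagens are secreted or membrane proteins in which 3 chains wind into a triple helix, so partner chains have to be made in the same cell. In the brain, type IV collagen forms the sheet under endothelium and around pericytes, while the fibrillar types I and III and much of type VI come from fibroblasts of the meninges and of the larger vessels. Some chains are neuronal, among them the transmembrane collagen XXV, whose shed ectodomain is known from amyloid plaques.

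The study asked how a high fat diet (HFD) changes the brain of APP23 mice, C57BL/6 animals with a transgene for human APP, the amyloid precursor protein, bearing the Swedish mutation of familial Alzheimer's disease. All mice were APP23 hemizygotes, so no group without the transgene was compared. At a mean age of 11.7 months they were assigned to HFD, with 40% of calories from fat, or to normal diet (ND), and they were tested at 14.7 months after 3 months of feeding. By the extraction protocol RNA came from the cortex of PBS-perfused mice, while the sample labels name the tissue only as brain, 1 library per mouse: among females 6 on ND and 5 on HFD, and among males 4 on each diet.

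Library totals ran from 11727151 to 17178044 reads in females and from 9308206 to 10844280 in males without overlap, so depth and sex cannot be told apart. Values are given as RPM, read counts scaled to a common library total. Cortical neuron markers summed to between 4636 and 6900 RPM in every library, but markers of neighbouring tissue were also present and varied. The 11 striatal markers summed to between 363 and 2560 RPM. The 10 olfactory bulb markers summed to 64.8 to 184 RPM in ND females, 52.5 to 67.7 in HFD females, 249 to 596 in ND males and 48.9 to 438 in HFD males. The 13 choroid plexus markers stayed between 17.5 and 61.7 RPM in 16 libraries and reached 185 in ND male F1080, 282 in HFD female F1063 and 418 in ND female F1102.

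The fibrillar and basement membrane classes differ in how the repeat of glycine and 2 further residues is laid out, which is shown here because the classes are followed apart below. In GENCODE M21 (GRCm38) coding sequence, where all 39 chains were found, the longest unbroken run of glycine triplets held 216 to 344 triplets in the 11 fibrillar chains and 40 to 66 in the 4 type IV chains. Fibrillar chains had 21 to 33 coding exons of exactly 54 bases, which code for 6 triplets each, and type IV chains had 1 to 3. The first such exon of the helix is printed for the chains of types I and III, with the glycine codons in register in capitals. They lie at chr11:94939904-94939957, chr6:4515481-4515534 and chr1:45325360-45325413, each on the plus strand.
Col1a1: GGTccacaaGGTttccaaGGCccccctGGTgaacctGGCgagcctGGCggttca
Col1a2: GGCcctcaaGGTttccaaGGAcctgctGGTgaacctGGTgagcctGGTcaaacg
Col3a1: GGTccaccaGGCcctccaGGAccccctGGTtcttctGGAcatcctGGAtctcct
In these 3 exons a codon in capitals returns every 9 bases without a break, because each is the first 54-base exon chosen for having that pattern.

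In the type IV chains the repeat is interrupted many times, and Col4a1 held 13 and Col4a2 17 separate runs of at least 10 triplets. A break of 6 codons in Col4a1 and one of 7 codons in Col4a2 is printed with 3 triplets on either side, the glycine codons in register in capitals. Each stretch is spliced from 2 neighbouring exons, within chr8:11236463-11237868 (minus strand) and chr8:11420660-11421232 (plus strand).
Col4a1: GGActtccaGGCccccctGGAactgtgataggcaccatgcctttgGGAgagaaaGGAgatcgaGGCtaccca
Col4a2: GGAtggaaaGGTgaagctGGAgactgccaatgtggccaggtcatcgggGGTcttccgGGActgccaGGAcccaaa
Col4a1 and Col4a2 are also neighbours that are read in opposite directions from start sites 22 bases apart, counting both ends. The starts leave no gap: Col4a2 starts at 11312805 on the plus strand and Col4a1 at 11312826 on the minus strand. Both transcripts thus cover the bases between, and GENCODE M21 lists 22 exon bases shared by the 2 genes on opposite strands. These 22 bases (chr8:11312805-11312826, RefSeq, GRCm38.p6, plus strand) are shown because they belong to both promoters, with a GC box in capitals.
Col4a1 and Col4a2 starts: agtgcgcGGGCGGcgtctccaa
The GC box was searched as GGGCGG on either strand from 250 bases before to 50 after the start, and a CCAAT box (CCAAT) and a TATA box (TATAAA) likewise. The GC box was present in 21 of the 31 collagen promoters in the RefSeq table (67.7%) and in 35.7% of 32851 promoters. The other 2 motifs were near the share of all promoters: CCAAT in 38.7% against 37.4%, and TATAAA in 12.9% against 13.6%. Such a match is a description, not a site.

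Collagen transcripts were dominated by a few chains. Per kb of exon, taken over all exons of a gene in GENCODE M21, the mean level of the 19 mice was highest for Col6a1 (18.7 RPM per kb), a chain of the beaded type VI microfibrils, then for Col4a2 (6.98) and Col4a1 (5.51), the 2 chains of the vascular basement membrane, and for Col19a1 (3.296), a FACIT chain. Col11a2, a minor fibril chain, reached 2.595, and Col25a1 2.56. Col1a2 and Col1a1, the chains of type I, stood at 1.65 and 1.30, and Col3a1, which forms type III alone, at 0.304 RPM per kb. The lowest levels were those of Col6a5 (0.125) and Col28a1 (0.139). The order depends in part on annotation, since exon length exceeded coding length unevenly. The exon and coding bases were 12426 and 4116 for Col1a2, 6563 and 4359 for Col1a1, and 4380 and 3075 for Col6a1. As class sums in RPM, not per length, type VI held 108.5, basement membrane 94.0, fibrillar 88.1 and FACIT 72.8 RPM.

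**Figure D1:**
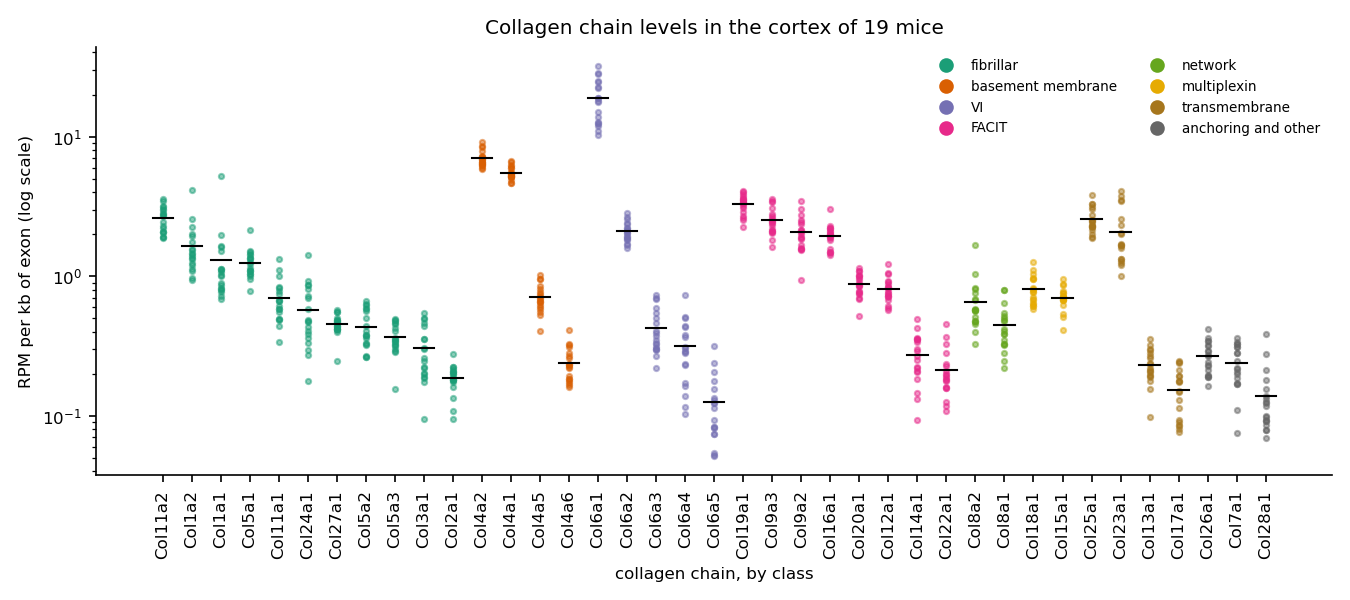
Level of each of the 39 collagen chains in RPM per kb of exon on a log axis, 1 point per mouse (n = 19) and a line at the mean, coloured by class. Col6a1, Col4a2 and Col4a1 have the highest means, and within the fibrillar class Col1a1 and Col1a2 each have 1 mouse far above the rest.

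The chains also differed in how far mice spread. The coefficient of variation over the 19 mice had a median of 28.1% for the collagen chains and 11.7% for all genes. Col4a1 (10.9%) and Col4a2 (12.9%) varied least, while Col1a1 (77.2%), Col28a1 (56.9%), Col6a5 (56.1%) and Col24a1 (52.2%), a minor fibrillar chain, varied most. This spread of RPM includes counting noise, and the comparison with all genes was not matched for level. Col28a1 had 4 to 19 reads a library and Col6a5 5 to 39, against 356 to 730 for Col4a1 and 380 to 890 for Col4a2. In 8 chains the count fell under 10 in at least 1 library. Col28a1 did not reach the count minimum in any diet comparison and Col17a1 not in males, so that 38 chains were tested for diet over both sexes, 38 for females alone and 37 for males alone.

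On HFD the collagen chains that passed the test were mostly lower. A chain is called where its unadjusted p-value in the quasi-likelihood test of edgeR is under 0.05, while the p-values printed are adjusted over all genes tested. With both sexes together and sex in the model, 6 chains fell (15.8% of 38; 6.99% of all genes) and 1 rose (2.63%; 5.44% of all genes). The 6 were Col6a3, Col4a2, Col25a1, Col14a1, Col23a1 and Col6a5, and the 1 was Col20a1. No chain passed an adjusted p of 0.05, the smallest being 0.0648 for Col6a3, and no gene of the table did. DESeq2 gave the same 7 calls, with 1 chain, Col6a3, under an adjusted p of 0.05. This split changed with the olfactory bulb markers, of which 8 of 10 also fell on HFD: with their mean as a covariate 3 chains were called lower (Col6a3, Col14a1 and Col25a1) and 3 higher (Col20a1, Col6a1 and Col24a1). Without a term for sex 4 were lower and 1 higher, and Col14a1 and Col23a1 were no longer called.

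The estimates of the chains leaned to the lower side: 28 of 38 were negative, beside 51.3% of all genes, with a median log2 fold change of -0.13 against 0.00 for all genes. In females 3 chains fell (7.89%; 4.5% of all genes) and 0 rose (3.92% of all genes). DESeq2 called 4 lower, 2 of them (Col4a2 and Col6a3) at an adjusted p under 0.05, and 0 higher, and limma-voom called 3 lower and 1 higher, Col20a1. In males 2 fell and 2 rose (5.41% each; 4.2% of all genes in either direction). Of the 37 chains tested in each sex, 21 had a negative estimate in both and 4 a positive one in both. In bulk tissue fewer cells of a type and less RNA per cell cannot be told apart.

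**Figure D2:**
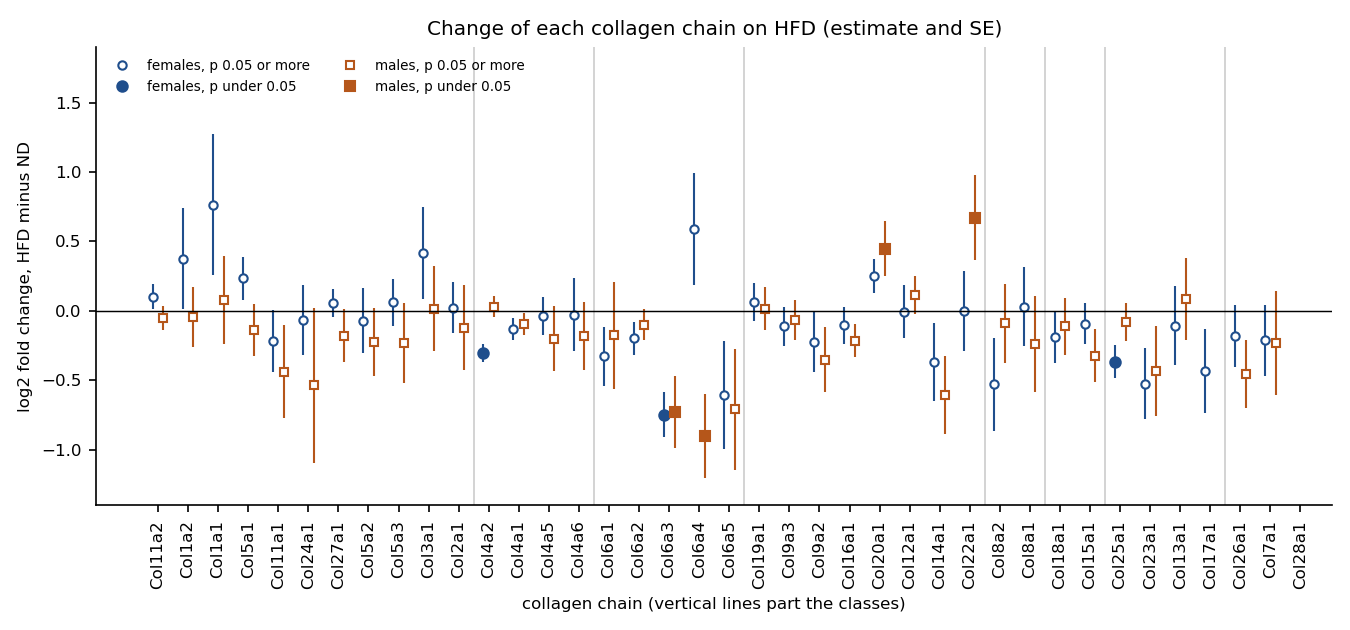
Estimated log2 fold change (HFD minus ND) with its standard error for each chain in females (circles, 6 ND and 5 HFD) and males (squares, 4 ND and 4 HFD), ordered by class, with an unadjusted p under 0.05 filled. Col6a3 lies near -0.75 in both sexes, Col4a2 and Col25a1 are called in females, and Col28a1 in either sex and Col17a1 in males have no value because they were not tested.

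Of the 4 basement membrane chains, Col4a2 fell on HFD in females and over both sexes, and no other was called for diet. Col4a2 ran from 46.0 to 60.4 RPM in ND females (median 53.6) and was 41.2, 41.9, 42.3, 42.8 and 44.6 RPM in HFD females. In males it was 39.0, 43.2, 43.6 and 48.3 RPM on ND and 39.6, 40.7, 45.8 and 47.6 RPM on HFD. Every HFD female lay below every ND female, while the males on the 2 diets overlapped fully and covered the range of the HFD females. This was the only chain whose female groups did not overlap towards lower values, as in 0.393% of all genes, and none separated towards higher ones (0.264% of all genes).

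The change of Col4a2 was -0.30 on the log2 scale in females (SE 0.06, adjusted p = 0.346), 14th among 14756 genes by p, and 0.03 in males (SE 0.08). With both sexes together it was -0.17 (SE 0.06, adjusted p = 0.242). It was called in all 19 fits that left out 1 mouse. With the mean of the olfactory bulb markers as a covariate the call ended, at -0.07 (SE 0.07) in both sexes and -0.15 (SE 0.09) in females. The ND females with the lowest Col4a2, F1102 (46.0 RPM) and A1092 (47.0 RPM), were also those with the lowest sums of these markers, 64.8 and 72.0 RPM. The highest sum among ND females was in F1073, and the highest Col4a2 in F1074. ND males had higher sums, 249 to 596 RPM, with Col4a2 at 39.0 to 48.3 RPM. What part these markers had in the result was not tested further.

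Its partner Col4a1, which joins Col4a2 in the trimer of the vessel wall, moved less. Col4a1 ran from 38.7 to 50.0 RPM in ND females (median 43.5) and was 34.6, 38.9, 40.0, 41.9 and 44.3 RPM in HFD females. Males had 36.4, 38.2, 44.8 and 46.5 RPM on ND and 34.6, 38.1, 39.0 and 39.9 RPM on HFD. The groups overlapped in both sexes, and the change over both sexes was -0.12 (SE 0.06, adjusted p = 0.411). Col4a1 just missed the threshold for a call and passed it without A1092, F1080, F1094, F1102, F1104 or F1128 (-0.14 to -0.13), with library totals (-0.13) and without A1092 and A1095, called the A mice here (-0.15). The other type IV chains, Col4a5 (mean 4.77 RPM) and Col4a6 (1.92 RPM), which form a separate trimer elsewhere in the body, gave -0.11 (SE 0.13) and -0.09 (SE 0.18).

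Type VI held the largest change of any chain called over both sexes. Col6a3, the long chain that joins Col6a1 and Col6a2 in the beaded microfibril, ran from 4.69 to 8.29 RPM in ND females (median 6.79) and was 3.18, 3.52, 3.91, 4.47 and 4.85 RPM in HFD females. Levels in males were 3.97, 4.19, 6.04 and 8.82 RPM on ND and 2.65, 3.59, 3.60 and 3.71 RPM on HFD. The male groups did not overlap, and in females only HFD mouse F1063 (4.85 RPM) passed the lowest ND mouse, F1073 (4.69 RPM).

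The fall of Col6a3 was -0.74 over both sexes (SE 0.14, 0.597 of the ND level, adjusted p = 0.0648), 9th among 14834 genes by p. It was -0.75 in females (SE 0.16, adjusted p = 0.352) and -0.73 in males (SE 0.26, adjusted p = 0.553), and the interaction term was -0.02 (SE 0.31, adjusted p = 0.998). The call over both sexes held in all 19 fits without 1 mouse, while the male call ended without ND male F1080, the highest (-0.44, SE 0.21). Counts of Col6a3 ran from 27 to 121 reads a library.

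The other 2 chains of that microfibril did not pass the test. Col6a1 ran from 45.0 to 108 RPM in ND females (median 90.3) and was 52.1, 53.6, 60.5, 77.3 and 78.6 RPM in HFD females, and in males it was 56.0, 83.4, 123 and 139 RPM on ND and 47.7, 66.2, 110 and 124 RPM on HFD. Mice of 1 group differed widely, the groups overlapped, and the change over both sexes was -0.27 (SE 0.21, adjusted p = 0.642). Without ND female F1102, the lowest, Col6a1 was called lower in HFD females (-0.45, SE 0.17). With the olfactory bulb marker mean as a covariate the sign of Col6a1 turned, to 0.34 (SE 0.16, adjusted p = 0.70), and it was called higher.

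Col6a2 ran from 13.2 to 23.8 RPM in ND females (median 17.3) and was 14.0, 14.0, 15.1, 15.4 and 18.4 RPM in HFD females. In males it was 16.2, 18.6, 21.3 and 22.0 RPM on ND and 15.6, 16.0, 19.5 and 20.0 RPM on HFD. The groups overlapped and the change was -0.16 (SE 0.08, adjusted p = 0.456). It was called lower over both sexes without F1063, F1102 or F1128 (-0.19 each) and in females without F1063 (-0.27) or F1102 (-0.26).

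Col6a4 and Col6a5 are alternative type VI chains thought to take the place of Col6a3, and both are rare here. Col6a4 ran from 1.38 to 3.25 RPM in ND females (median 2.24) and was 0.985, 1.47, 4.30, 4.34 and 6.21 RPM in HFD females. Males had 2.67, 3.12, 3.70 and 3.76 RPM on ND and 0.879, 1.18, 2.40 and 2.43 RPM on HFD. Every HFD male lay below every ND male, while among the 5 HFD females 1 lay below the range of the ND females and 3 above it. Col6a3 and Col6a4 were the 2 chains whose male groups did not overlap towards lower values (5.41% of 37; 3.39% of all genes), and none separated towards higher ones (1.53% of all genes).

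The male change of Col6a4 was -0.90 (SE 0.30, adjusted p = 0.553) and the female one 0.59 (SE 0.40), and the male call ended in 1 fit of the 4 groups (-0.90, SE 0.47). Counts of Col6a4 were 9 to 80 a library, and antisense and unclassified transcripts share 162 and 127 of its exon bases in GENCODE M21, which a count without a stated strand setting cannot keep apart. Col6a5 had a median of 1.02 RPM in ND females (0.767 to 3.00) and was 0.507, 0.699, 0.702, 1.15 and 1.27 RPM in HFD females, 1.07, 1.23, 1.68 and 2.24 RPM in ND males and 0.485, 0.490, 0.781 and 1.94 RPM in HFD males. Its groups overlapped, and its change of -0.65 (SE 0.30, adjusted p = 0.381) passed in 9 of the 19 fits without 1 mouse, being lost without any of F1063, F1065, F1079, F1094, F1102, F1104, F1128, F1129, F1145 and F1252 (-0.64 to -0.43), and not with the olfactory bulb covariate (-0.79, SE 0.38).

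**Figure D3:**
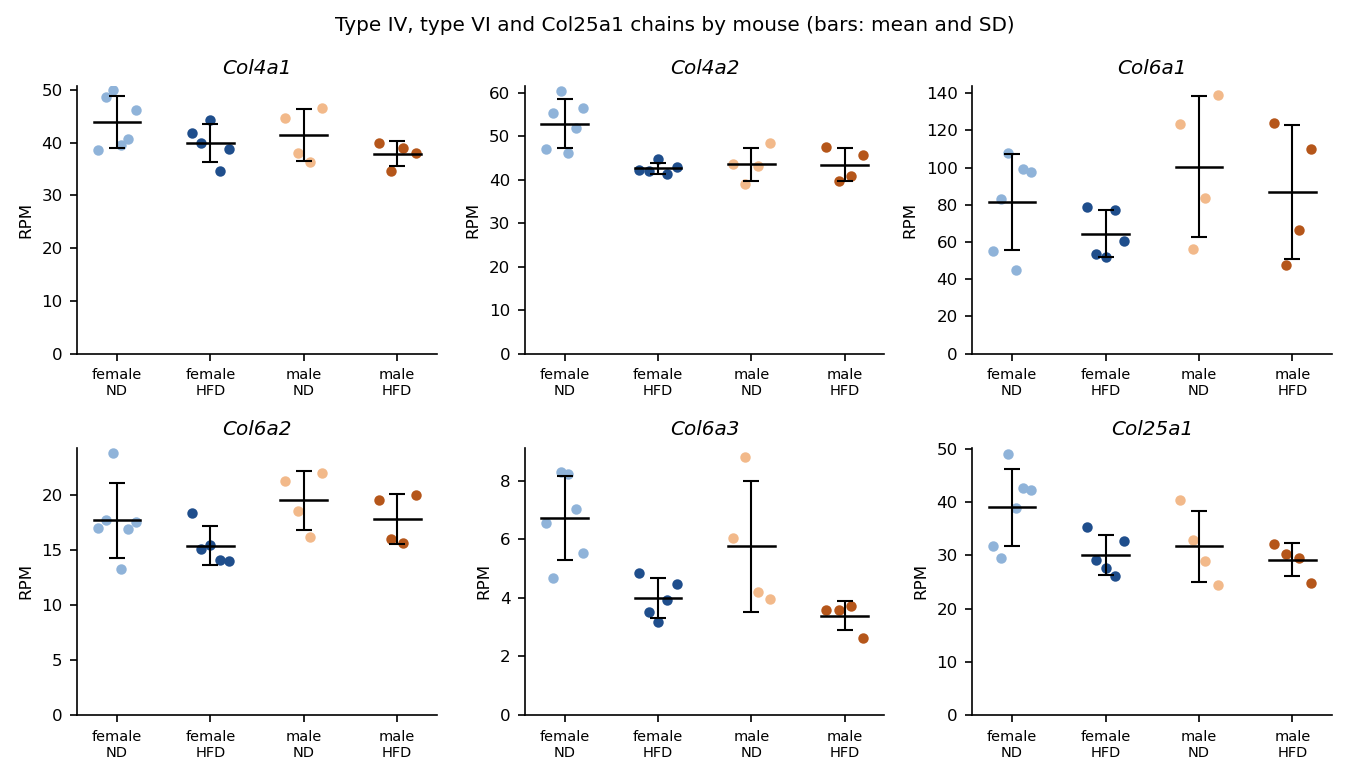
RPM of Col4a1, Col4a2, Col6a1, Col6a2, Col6a3 and Col25a1 in each mouse by sex and diet, with the group mean and SD, on axes that start at 0. The HFD females lie below all ND females for Col4a2 and the HFD males below all ND males for Col6a3, while Col6a1 spreads widely in every group.

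None of the 11 fibrillar chains was called for diet in either sex or in both together with edgeR, DESeq2 or limma-voom, though Col24a1 was with the olfactory bulb covariate, Col11a1 over both sexes without the A mice, Col3a1 in females without F1074 and Col5a1 in females without F1100, and their median log2 fold change was -0.03 over both sexes. The chains of type I, the main collagen of fibrous tissue, turned on 1 library. Col1a1 ran from 4.73 to 10.6 RPM in ND females (median 6.12) and was 4.47, 5.20, 5.90, 7.32 and 34.0 RPM in HFD females. Levels in males were 5.07, 6.66, 7.43 and 13.03 RPM on ND and 5.44, 7.03, 9.90 and 10.9 RPM on HFD. The value of 34.0 RPM, from HFD female F1063, was 5.15 times the median of the other 18 mice, and the remaining HFD females lay within or just below the ND range.

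Col1a2 ran from 13.5 to 25.1 RPM in ND females (median 15.2) and was 11.7, 12.1, 16.6, 17.9 and 51.9 RPM in HFD females. In males it was 16.8, 18.2, 24.3 and 32.1 RPM on ND and 17.4, 19.4, 21.8 and 28.1 RPM on HFD. Again F1063 alone stood out, at 2.94 times the others' median, and it also had the highest Col12a1 (18.7 RPM, others at most 16.2), a FACIT chain that sits on type I fibrils. The female change of Col1a1 was 0.76 (SE 0.51) with F1063 and -0.22 (SE 0.21) without it, and that of Col1a2 was 0.38 (SE 0.36) and -0.22 (SE 0.19).

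Col3a1, the chain of type III fibrils in vessel walls and meninges, ran from 0.938 to 4.32 RPM in ND females (median 1.91) and was 1.72, 1.99, 2.96, 3.49 and 4.56 RPM in HFD females. Males had 2.15, 2.53, 4.85 and 4.92 RPM on ND and 2.43, 3.03, 3.50 and 5.39 RPM on HFD. The groups overlapped and the change was 0.24 (SE 0.24, adjusted p = 0.736), and F1063 was not the highest of the 19 mice. Without ND female F1074, whose 4.32 RPM lay above all other ND females, Col3a1 was called higher in HFD females (0.71, SE 0.28, adjusted p = 0.628).

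Since F1063 bears on both type I chains, its other genes were looked at. It was the highest mouse for the blood markers Hba-a1 (35.3 RPM, others at most 24.0), Hba-a2 (24.2, 8.93), Hbb-b1 (23.9, 15.5) and Alas2. For the blood marker Hbb-bs it was not, with 5.28 RPM against 12.6 RPM in HFD female F1076. Its 12 microglial markers had the highest sum, 867 RPM. The 20 meningeal and perivascular fibroblast markers summed to 226 RPM there, within the 194 to 465 RPM of all mice. Genes chosen after its values were seen were far higher: S100a8 and S100a9 of neutrophils at 25.04 and 35.4 RPM (others at most 2.16 and 3.53), Ngp and Ltf of neutrophil granules at 23.6 and 8.98 (others at most 2.25 and 1.03), and the olfactory epithelium genes Cyp2g1, Cyp2a5 and Bpifa6 at 23.5, 33.5 and 12.96 (others at most 9.60, 8.82 and 5.91). Omp of olfactory neurons was 21.1 RPM there, above the others' median of 2.64 but below the 25.03 of ND male F1131. Sp7 and Alpl, genes of bone-forming cells, were 0.869 and 11.2 RPM there, with medians of 2.99 and 10.6 in the others. The part of other tissue in the type I values was not tested.

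Among the other fibrillar chains, Col5a1, Col5a2 and Col5a3, which regulate the width of type I fibrils, gave 0.09 (SE 0.13), -0.14 (SE 0.18) and -0.06 (SE 0.16) over both sexes. Col11a1 and Col11a2, which do so in cartilage fibrils, gave -0.31 (SE 0.20) and 0.04 (SE 0.06), and Col2a1, the cartilage chain itself, gave -0.03 (SE 0.16) from a mean of 1.72 RPM. Col24a1 gave -0.27 (SE 0.29) and Col27a1 -0.04 (SE 0.10). None of these intervals left out 0, and the narrowest, that of Col11a2, ran from -0.08 to 0.17.

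The FACIT chains, which decorate fibrils rather than form them, held the only chain that rose over both sexes. Col20a1 ran from 3.85 to 5.63 RPM in ND females (median 3.99) and was 4.62, 4.85, 4.996, 5.24 and 5.59 RPM in HFD females. Levels in males were 2.67, 3.51, 3.57 and 5.16 RPM on ND and 4.37, 4.43, 5.17 and 5.88 RPM on HFD. In each sex 1 ND mouse, F1073 among females and F1131 among males, overlapped the HFD mice, and all other ND mice lay below all HFD mice of their sex. The change was 0.32 (SE 0.11, adjusted p = 0.225) and was called in all 19 fits without 1 mouse. In males alone it was 0.45 (SE 0.20, adjusted p = 0.585), a call that was lost with DESeq2, library totals or the fibroblast covariate and without F1079, F1080, F1128, F1129 or F1145 (0.33 to 0.43).

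Col14a1, a FACIT chain that binds decorin-coated fibrils, fell over both sexes by less certain margins. It ran from 1.02 to 2.503 RPM in ND females (median 1.73) and was 0.651, 1.28, 1.48, 1.53 and 2.10 RPM in HFD females, 2.44, 2.48, 2.97 and 3.44 RPM in ND males and 0.922, 1.75, 2.06 and 2.54 RPM in HFD males. Only HFD male F1129 reached the ND males, and the female groups overlapped. The change was -0.47 (SE 0.20, adjusted p = 0.336), a call lost without A1095, F1063, F1080, F1102, F1104 or F1131 (-0.45 to -0.37) and without the A mice (-0.41, SE 0.20).

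Col22a1, known from tissue junctions, was called only in males. It was 1.46, 1.49, 1.83 and 2.15 RPM in ND males and 1.66, 1.94, 3.01 and 4.21 RPM in HFD males, a change of 0.67 (SE 0.31, adjusted p = 0.592). In females it ran from 0.999 to 2.604 RPM on ND (median 1.77) and was 1.09, 1.15, 1.63, 1.69 and 3.40 RPM on HFD, the last in F1063, for a change of 0.00 (SE 0.29). The male groups overlapped, the interaction term was -0.67 (SE 0.47), and the male call was lost without F1065, F1079, F1128, F1131 or F1145 (0.39 to 0.69) and with DESeq2, limma-voom, library totals, either marker covariate or 1 fit of the 4 groups. The remaining FACIT chains Col9a2, Col9a3, Col12a1, Col16a1 and Col19a1 gave between -0.28 and 0.04 over both sexes, none of them called in the main test.

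The 2 transmembrane chains with the highest levels per kb, Col25a1 and Col23a1, fell. Col25a1, the neuronal collagen of amyloid plaques, ran from 29.5 to 49.1 RPM in ND females (median 40.6) and was 26.1, 27.6, 29.1, 32.7 and 35.3 RPM in HFD females. In males it was 24.5, 29.0, 32.8 and 40.4 RPM on ND and 24.9, 29.5, 30.2 and 32.2 RPM on HFD. The groups overlapped, 4 of the 6 ND females lay above every HFD female, and the males covered a like range on either diet.

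The change of Col25a1 was -0.37 in females (SE 0.12, adjusted p = 0.464), -0.08 in males (SE 0.14) and -0.26 over both sexes (SE 0.10, adjusted p = 0.282). The interaction term of -0.28 (SE 0.20) does not show that the sexes differed. The call over both sexes held in all 19 fits without 1 mouse and the female one in all 11, though the female one ended with the olfactory bulb covariate (-0.39, SE 0.20).

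Col23a1, a chain shed from the cell surface, ran from 7.57 to 21.5 RPM in ND females (median 9.60) and was 5.79, 6.93, 7.41, 9.16 and 9.78 RPM in HFD females. Males had 11.5, 14.7, 20.0 and 23.4 RPM on ND and 7.19, 9.47, 13.4 and 20.3 RPM on HFD. The groups overlapped in both sexes, with ND female F1074 (21.5 RPM) far above the other ND females. The change was -0.49 (SE 0.21, adjusted p = 0.337) over both sexes, a call lost without F1063, F1065, F1074, F1079, F1100, F1129, F1131 or F1252 (-0.47 to -0.33), and it was -0.07 (SE 0.23) with the olfactory bulb covariate. Col13a1 of cell junctions gave -0.04 (SE 0.20) and Col17a1, the hemidesmosome chain, -0.39 (SE 0.24) over both sexes.

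In the remaining classes no chain was called for diet in the main test. Under the alternatives Col18a1 was called lower in females with the fibroblast covariate (-0.24, SE 0.11) and Col8a2 in females with the olfactory bulb covariate. Col15a1 and Col26a1 were called lower over both sexes without F1094, and Col26a1 in males without F1128. Col18a1, the multiplexin of vessel basement membranes from which endostatin is cut, ran from 4.12 to 8.91 RPM in ND females (median 5.54) and was 4.42, 4.53, 4.75, 5.56 and 6.68 RPM in HFD females. Levels in males were 4.30, 4.97, 7.33 and 7.80 RPM on ND and 4.27, 5.37, 5.81 and 6.66 RPM on HFD. These groups overlapped, and the change over both sexes was -0.16 (SE 0.14, adjusted p = 0.683). Its relative Col15a1 gave -0.18 (SE 0.12), the type VIII chains Col8a1 and Col8a2 gave -0.07 (SE 0.23) and -0.37 (SE 0.24), Col26a1 gave -0.28 (SE 0.16) and Col7a1, the anchoring fibril chain, -0.22 (SE 0.22).

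A difference between the sexes in the response to HFD was called for 2 of the 39 chains tested for an interaction (5.13%; 5.21% of all genes), Col4a2 and Col6a4. For Col4a2 the female change lay 0.34 below the male one on the log2 scale (interaction -0.34, SE 0.10, adjusted p = 0.903), and it was called in all 19 fits without 1 mouse. For Col6a4 the female change lay 1.49 above the male one (SE 0.60, adjusted p = 0.903), called in 18 of 19 such fits, the exception being without HFD male F1129 (1.28, SE 0.61). Neither adjusted value comes near the threshold, and the share of chains called is near that of all genes.

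Between the sexes, over both diets, 5 chains were higher in females (13.2%; 14.1% of all genes) and 2 lower (5.26%; 12.5% of all genes). Of these, 2 chains were higher in females after adjustment (6.28% of all genes had an adjusted p under 0.05 and were higher) and 0 lower (4.98% of all genes) with edgeR, where 2 had been lower before adjustment and where DESeq2 and limma-voom each kept 1 after it, Col23a1. Since the females were sequenced deeper, depth and sex cannot be told apart in any of these differences. Females also had far lower olfactory bulb markers than males, lower for 10 of 10, lower fibroblast markers for 8 of 20, higher microglial markers for 9 of 12 with 1 lower, and higher striatal markers for 7 of 11. Their part in the collagen differences was tested only with the olfactory bulb and fibroblast covariates.

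Col11a2, a minor fibril chain known from cartilage and the inner ear, differed most. It ran from 16.8 to 21.9 RPM in ND females (median 20.1), was 18.5, 19.1, 20.5, 23.9 and 24.6 RPM in HFD females, 13.03, 14.2, 15.3 and 15.7 RPM in ND males and 13.01, 13.2, 14.3 and 14.4 RPM in HFD males. All 11 females lay above all 8 males, and the difference of 0.55 (SE 0.07, adjusted p = 3.19e-05) stayed between 0.52 and 0.57 in the 19 fits without 1 mouse. Col9a3, a chain of type IX collagen, ran from 8.95 to 13.8 RPM in ND females (median 10.8), was 7.88, 9.32, 10.4, 10.7 and 13.2 RPM in HFD females, 6.24, 8.10, 9.51 and 9.99 RPM in ND males and 6.99, 7.93, 8.13 and 8.40 RPM in HFD males.

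The sexes overlapped for Col9a3, with a difference of 0.40 (SE 0.11, adjusted p = 0.0179), and 234 of its exon bases are shared with Tcfl5 on the other strand. With the olfactory bulb covariate Col9a3 was still called, but only Col11a2 kept an adjusted p under 0.05. Col16a1, a FACIT chain, had a median of 14.5 RPM in ND females (9.61 to 20.5), was 12.96, 13.02, 13.2, 14.0 and 14.9 RPM in HFD females, 10.03, 12.7, 13.5 and 14.7 RPM in ND males and 9.96, 10.001, 10.6 and 12.3 RPM in HFD males. Its difference of 0.28 (SE 0.10, adjusted p = 0.0627) missed the adjusted threshold, which it passed with DESeq2 and with the fibroblast covariate. Col23a1 was lower in females (-0.64, SE 0.21, adjusted p = 0.057), and with the olfactory bulb covariate the difference was 0.04 (SE 0.29).

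**Figure D4:**
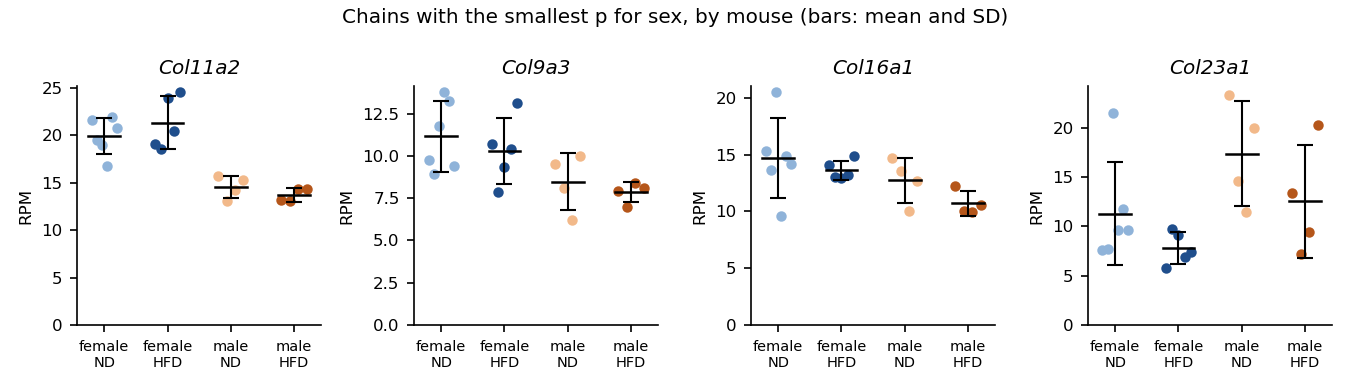
RPM of the 4 chains with the smallest p for sex, Col11a2, Col9a3, Col16a1 and Col23a1, in each mouse by sex and diet, with the group mean and SD, on axes that start at 0. For Col11a2 every female (16.8 RPM or more) lies above every male (15.7 RPM or less), while the sexes overlap for the other 3 chains.

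Chains that form 1 trimer, and a few pairs that do not, were compared across mice after the mean of each group was taken off, in 12 pairs with permutation tests within groups (100000 resamples, two-sided, adjusted over the 12). Col1a1 and Col1a2 rose and fell together most closely (n = 19, Pearson r = 0.944, permutation adjusted p = 0.00042, Spearman rho = 0.826, permutation adjusted p = 0.0015), and r was 0.842 without F1063 and 0.84 without the 2 mice farthest out. Col3a1 followed Col1a2 (r = 0.758, rho = 0.839) and Col1a1 (r = 0.626, rho = 0.653), and Col4a1 followed Col4a2 (r = 0.739, rho = 0.70), each at a permutation adjusted p of 0.0141 or less. Without the 2 mice farthest out these were 0.782, 0.638 and 0.722. The mice left out of a pair were those farthest from the median of its first-named chain alone. For both Col3a1 pairs they were F1073 and F1074, so F1063 stayed in. Without F1063, r was 0.843 for Col3a1 with Col1a2 and 0.63 for Col3a1 with Col1a1.

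Col6a1 and Col6a2 varied together (r = 0.657, rho = 0.707, permutation adjusted p = 0.0142 and 0.0141, r = 0.599 without the 2 mice farthest out), but the chain that completes the trimer did not follow them: Col6a3 gave r = -0.392 with Col6a1 (rho = -0.347, permutation adjusted p = 0.247) and r = -0.0895 with Col6a2 (rho = -0.205, permutation adjusted p = 0.742 and 0.49). Col8a1 and Col8a2 gave r = 0.618 (rho = 0.56, permutation adjusted p = 0.018 and 0.0397), which fell to 0.384 without F1080 and F1102, so this relation rests on them. These 2 mice had the highest Col8a1 (6.26 and 6.23 RPM), F1102 had the highest Col8a2 (7.53 RPM), and both are among the 3 libraries with the highest choroid plexus markers.

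Col5a1 with Col5a2 (r = 0.322, rho = 0.333), Col9a2 with Col9a3 (r = 0.311, rho = 0.339), Col4a1 with Col3a1 (r = 0.155, rho = 0.123) and Col25a1 with Col3a1 (r = 0.516, rho = 0.437) did not pass, with permutation adjusted p from 0.0855 to 0.653. Within females 4 pairs passed by Pearson's r, the 3 of types I and III and Col4a1 with Col4a2, of which only Col1a1 with Col1a2 and Col4a1 with Col4a2 passed by Spearman's rho, and within the 8 males none did, where the closest pair, Col1a2 with Col3a1, gave r = 0.875 (exact permutation adjusted p = 0.271).

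**Figure D5:**
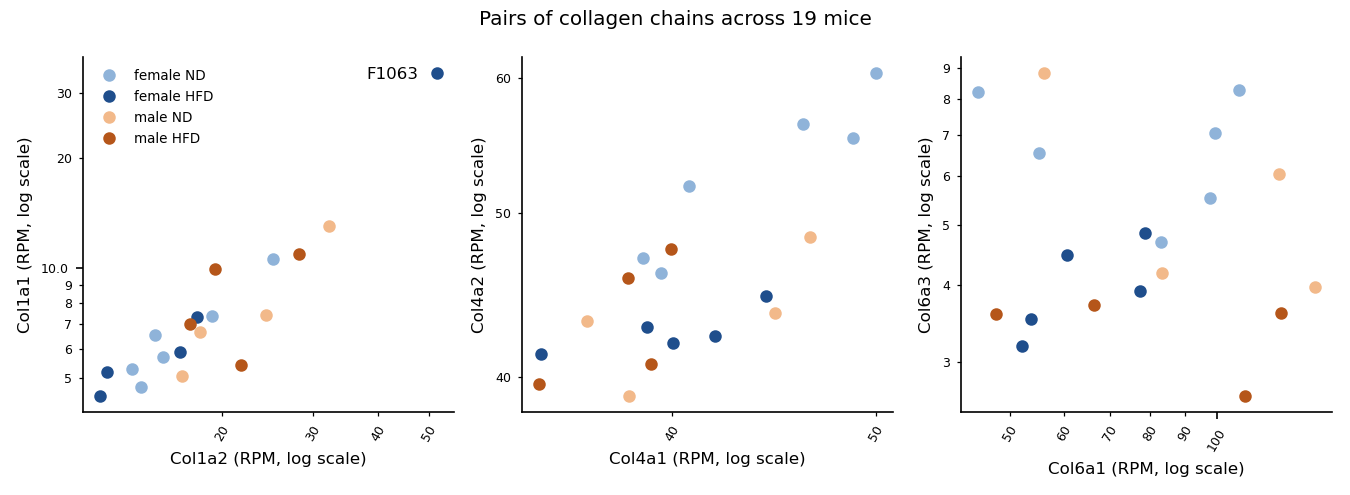
RPM of 3 pairs of chains in each of 19 mice on log axes, coloured by sex and diet: Col1a1 against Col1a2, Col4a2 against Col4a1, and Col6a3 against Col6a1. The first 2 pairs rise together, F1063 lies at the upper right of the type I pair, and Col6a3 shows no rise with Col6a1.

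Genes that build, bind and degrade collagen were counted by list, each with all of its tested members, over both sexes. For every list the share to set beside the counts is that of all genes, 6.99% called lower and 5.44% called higher. Of 27 assembly enzymes 1 fell, Tll1, a procollagen peptidase (-0.52, SE 0.16, adjusted p = 0.193), and 1 rose, Loxl3, a cross-linking oxidase (0.22, SE 0.09, adjusted p = 0.334). The next by p, Ppib, a helix-folding isomerase, gave -0.11 (SE 0.06). Of 14 fibril-binding proteoglycans and glycoproteins only Postn, periostin, fell (-0.43, SE 0.19, adjusted p = 0.368), while Fbln1 and Fbln2 gave -0.18 (SE 0.12) and -0.15 (SE 0.12). Of 16 basement membrane partners 2 fell, the laminin chains Lamb1 (-0.21, SE 0.07, adjusted p = 0.235) and Lama3 (-0.28, SE 0.11, adjusted p = 0.294), while Nid1, nidogen, gave -0.16 (SE 0.10).

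Of 9 collagen receptors, Adgrg1, an adhesion receptor for type III collagen, fell (-0.28, SE 0.08, adjusted p = 0.168), and Lair1, an inhibitory receptor of leukocytes (0.31, SE 0.13, adjusted p = 0.30), and Mrc2, an uptake receptor (0.25, SE 0.11, adjusted p = 0.337), rose. Of 9 degrading proteases and inhibitors, Ctsk, a lysosomal collagenase (0.39, SE 0.14, adjusted p = 0.249), and Mmp16 (0.19, SE 0.07, adjusted p = 0.258) rose, and the inhibitor Timp2 fell (-0.19, SE 0.08, adjusted p = 0.302). Of 14 TGF-beta ligands and receptors, Tgfbr2 rose (0.27, SE 0.07, adjusted p = 0.14), Smad7, the inhibitory SMAD, fell (-0.14, SE 0.06, adjusted p = 0.339), and Tgfbr1 gave 0.12 (SE 0.06). None of these genes passed an adjusted p of 0.05, and that of Tgfbr2 was the smallest. The list medians lay between -0.10 and 0.05.

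Markers of cells known to make collagen were counted in the same way, again beside 6.99% of all genes lower and 5.44% higher over both sexes. Over both sexes none of 20 fibroblast markers was called (Foxc2, Dcn and Foxc1, with the smallest p, gave 0.37, -0.37 and -0.14), 1 of 14 mural cell markers rose (Cspg4, 0.15, with Pdgfrb 0.09 and Myh11 0.27), and of 14 endothelial markers Tek (0.19) and Ly6c1 (0.26) rose and Kdr fell (-0.22). With the fibroblast marker mean as a covariate the same 7 chains were called over both sexes, with Col9a2 added. Other tissue moved more. The olfactory bulb markers fell for 8 of 10 over both sexes (median -1.17, smallest p Sp8, Calb2 and Th) and for 8 of 9 in females (4.5% of all genes). They were called for 0 of 10 in males (4.2% of all genes in either direction). Of 8 choroid plexus markers 3 fell (Prlr, Otx2 and Sostdc1, -1.31, -0.87 and -0.89), of 7 thalamic markers 2 fell (Calb2 and Prkcd, with Rgs16 next by p), of 12 microglial markers 9 rose (median 0.26; smallest p Cx3cr1, Csf1r and P2ry13), of 6 blood markers 5 rose (Alas2, Hbb-bs and Hba-a2 with the smallest p, 1.92, 2.5 and 2.32), and neither the 11 striatal (Rxrg, Tac1 and Penk) nor the 10 cortical neuron markers (Nrgn and Camk2a) had a call. The part of these cells in the collagen values was not tested beyond the covariates.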

How the data were processed

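Cortex libraries were sequenced on an Illumina instrument, and reads were assigned to genes by the authors with Subread 1.4.0 and featureCounts on mouse build mm9. The submitters' notes also name edgeR. The authors deposited for every mouse the count of each gene and its RPM, and counts divided by recovered library totals give those RPM back within 4.8e-06. The strand setting and gene models are not given in the sources used here, so overlapping and antisense genes are uncertain. The table holds a median of 99.2% of a library's total, each gene over 1 RPM in at least 2 libraries. All 38 value columns were used.

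Genes were tested by quasi-likelihood in edgeR 4.0.16 (R 4.3.3, robust, TMM, filterByExpr with minimum count 10 and minimum total 15), in both sexes with a term for sex, in females, in males, for the interaction and for sex. The Benjamini-Hochberg adjustment ran over all genes tested, and the threshold was 0.05. The standard error is the log2 fold change divided by the square root of F. Intervals are the estimate ± 1.96 standard errors. Co-variation was taken on log2 CPM (prior count 2). The tests recovered known folds in simulated counts: a 1.5-fold difference had a p under 0.05 for 98.3% of changed genes over both sexes, 98.5% in females and 95.8% in males. For 1.25-fold these shares were 87.7%, 73% and 68.2%, and an adjusted p under 0.05 was reached by 35.8%, 19% and 13.6% of changed genes. Every simulated gene was given the same biological variation, and the changed genes were drawn from the whole table. The RPM of collagen chains spread more (median coefficient of variation 28.1%, against 11.7% for all genes), a spread that includes counting noise at low counts. These shares therefore cannot be carried over to the collagen chains.

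Alternatives were DESeq2 1.42.0, limma-voom (limma 3.58.1), RLE scaling, library totals, no filter, 1 CPM in 4 libraries, marker means as covariates, no term for sex, 1 fit of the 4 groups, each mouse left out in turn, and both mice with identifiers beginning with A left out. The libraries matched their labelled sex in 19 of 19, and in all 37 pairs within groups the counts differed beyond sampling noise (chi-square at least 4.38 times its degrees of freedom). The labels give no litter, batch or run, so p-values measure the spread between these mice. Figures were drawn with matplotlib in Python, from the tables of results.

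The rule for the members names symbols only, but the family and the lists were proposed with earlier results of these data known. Every chain is accounted for; values by mouse are given for chains called for diet or interaction, for 10 fixed chains and for the 4 with the smallest p for sex, and of each other list the 3 genes with the smallest p over both sexes are named, except 1 that is not reported here. Sequences come from GENCODE M21 and RefSeq, whose build differs from mm9, and gene models there may differ from those counted. The other measurements of the study were not analysed here.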

Additional observations from a re-analysis of the deposited data

Results flagged for a closer look

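In 76 groups of 4 to 6 mice (19 chains in 4 groups), 8 values stood apart from their group. The cut-off is passed by about 1 in 20 groups where values follow a normal curve. That rate cannot be set beside the 8 here. Some of the chains were chosen by their p-values, RPM at low counts need not follow such a curve, and Col1a1 and Col1a2 varied together (r = 0.944). HFD female F1063 held 3 of them: Col1a1 at 34.02 RPM (next highest HFD female 7.32), Col1a2 at 51.9 RPM (17.9) and Col22a1 at 3.402 RPM (1.69). ND female F1074 held 2, Col23a1 at 21.51 RPM (next 11.8) and Col3a1 at 4.316 RPM (2.18). The rest were Col20a1 at 5.628 RPM in ND female F1073 (next 4.38), Col6a5 at 2.998 RPM in ND female F1102 (1.46) and Col6a3 at 2.645 RPM in HFD male F1145, the lowest of 4 (next 3.59). The response to HFD differed between the sexes by the interaction term for Col4a2 (-0.336 on the log2 scale) and Col6a4 (1.49), neither at an adjusted p under 0.05.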

How the results depend on the processing

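With the olfactory bulb marker mean as a covariate, 3 chains were lower and 3 higher over both sexes, 1 was higher in males, and 10 were higher and 1 lower in females than in males. With the fibroblast marker mean these were 5 lower on HFD in females, 0 higher on HFD in males, and 8 higher and 1 lower in females than in males. Chains higher on HFD in males numbered 0 with DESeq2 and library totals and 1 with limma-voom and in 1 fit of the 4 groups, which gave 1 lower. Limma-voom gave 1 chain higher in HFD females and 1 interaction, library totals 3 higher in females than in males, and the males alone 0 pairs passing in co-variation, against 6 over all mice.

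Without 1 mouse the counts ran over both sexes from 4 to 8 lower and 1 to 1 higher, in females from 3 to 5 and 0 to 1, in males from 1 to 4 and 0 to 2, from 1 to 3 for the interaction, and from 3 to 6 higher and 2 to 7 lower in females than in males, the 7 without F1063 or F1065.

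Estimates that changed sign were none of them called in the main test, apart from Col23a1 for sex (0.035 with the olfactory bulb covariate). That covariate gave Col6a1 0.34 over both sexes, 0.47 in females and 0.32 in males, Col6a2 0.035 in females and 0.028 in males, and in males Col1a1 -0.052, Col1a2 0.038 and Col18a1 0.0063. In males the fibroblast covariate gave Col1a2 0.11 and Col18a1 0.045, library totals Col3a1 -0.015 and Col4a2 -0.00269, and leaving out the A mice Col4a2 -0.0096. Without 1 mouse, Col1a1 ran from -0.087 to 0.65 over both sexes, -0.22 to 0.97 in females and -0.088 to 0.42 in males, Col1a2 from -0.14 to 0.30, -0.22 to 0.54 and -0.18 to 0.18, and in males Col3a1 from -0.23 to 0.21, Col4a2 from -0.012 to 0.078, Col6a1 from -0.39 to 0.021, Col18a1 from -0.25 to 0.037 and Col25a1 from -0.19 to 0.036. Col6a2 with Col6a3 gave r = 0.0188 in females alone and Col4a1 with Col3a1 r = -0.113 in males alone. The cause of these changes was not tested. Depth limits Col2a1, Col6a4, Col6a5, Col7a1, Col13a1, Col14a1, Col17a1 and Col28a1, which fell under 10 reads in at least 1 library.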
